A study of Homo sapiens with 6 samples.

Results

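Expression of 8 genes was examined in MCF10A cells with raised flotillins: the receptor tyrosine kinase genes MET, MST1R (which encodes RON), DDR1, DDR2, ROR1, ROR2 and RYK, and HGF, the gene of the MET ligand. They were taken by gene symbol from the deposited tables, where they are 8 of 52401 genes. DDR1 has 7 rows, 1 on chromosome 6 and 6 on alternative haplotype sequences of the same region; the 6 are at 0 in both groups and are left out below. MCF10A is an immortalised, non-tumorigenic human mammary epithelial line. The control line stably expressed the fluorescent protein mCherry from 1 retroviral vector and had been selected with puromycin. The flotillin line stably co-expressed Flotillin1-HA and Flotillin2-mCherry from 2 retroviral vectors and had been selected with puromycin and hygromycin. Both lines grew in DMEM/F-12 with horse serum, insulin, EGF, hydrocortisone and cholera toxin, and 3 samples of each were sequenced as stranded mRNA libraries. Each group is a single stable line, so the flotillin level, the number of vectors and the second drug cannot be told apart, and the labels do not say whether the 3 samples came from separate cultures.

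MET and RON are related receptors that epithelial cells use to sense secreted ligands shaped like inactive proteases, HGF for MET and macrophage-stimulating protein (MSP, encoded by MST1) for RON. Both ligands are made as single-chain precursors and must be cleaved by serine proteases such as matriptase before they signal. DDR1 and DDR2 bind collagen of the matrix, DDR1 mainly in epithelium and DDR2 mainly in mesenchymal cells. ROR1, ROR2 and RYK are receptors or co-receptors for WNT proteins, with WNT5A the best known ligand of the ROR pair, and they act largely through planar polarity signalling rather than through beta-catenin. RYK carries a kinase domain held to be catalytically inactive.

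The flotillin line had less RNA of 3 of the receptors. MST1R was 6.19-fold lower, DDR1 4.43-fold lower and MET 3.26-fold lower than in the control line. RYK, ROR1 and DDR2 did not pass the threshold. ROR2 rose in the authors' deposited table of means from a very low level, and HGF was at or near 0 in all 6 libraries. In the authors' deposited table of means, where a call is an adjusted p under 0.05, 7 of the 8 genes were tested, 3 were lower and 1 was higher. Over all 19733 genes tested there, 12% were called lower and 11.6% higher, and the median log2 fold change was -0.04. The same 3 genes were lower in the authors' deposited Tuxedo table, a second comparison by q-value, in which 10% of 17022 tested genes were lower, 6.93% higher and 16.9% called in all. They were also the 3 genes called lower by limma, a linear model fitted here to the reads recovered for each library, which called 11.1% of 15818 genes lower and 12.1% higher (23.2% in all). With voom weights limma called the same 3, against 10.6% of genes lower and 11.9% higher.

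The upstream sequences of MST1R and MET, the receptors of the MET family that were lower together, are given here 5′ to 3′ in the direction of the gene, as the 250 bases before the RefSeq start (build GRCh38.p14). The MST1R window, chr3:49903874-49904123 on the minus strand, has the E-box CAGGTG in capitals, 154 bases before the start. It overlaps exons of an antisense transcript, AC105935.1, over 217 bases. The MET window, chr7:116671946-116672195 on the plus strand, overlaps no annotated exon.
MST1R: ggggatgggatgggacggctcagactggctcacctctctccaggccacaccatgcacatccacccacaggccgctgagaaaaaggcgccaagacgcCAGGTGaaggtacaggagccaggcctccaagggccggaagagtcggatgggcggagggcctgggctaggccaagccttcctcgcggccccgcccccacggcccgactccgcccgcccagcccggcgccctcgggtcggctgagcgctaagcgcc
MET: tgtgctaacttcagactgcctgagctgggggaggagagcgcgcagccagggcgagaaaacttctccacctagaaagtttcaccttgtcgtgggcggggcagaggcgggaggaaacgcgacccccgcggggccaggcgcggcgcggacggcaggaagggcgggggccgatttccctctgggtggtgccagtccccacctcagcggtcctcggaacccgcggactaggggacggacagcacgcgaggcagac
All 8 genes matched the RefSeq promoter table, with 17 windows among them, 8 of which belong to DDR1. The 8 DDR1 windows all overlap annotated DDR1 exons, over 110 to 250 of their 250 bases. Those starting at 30883658 and 30883834 also overlap each other, so the DDR1 windows are not separate upstream regions. The letters CACCTG or CAGGTG, searched on both strands, occurred in 4 of the 17 windows (the MST1R window and 3 of the DDR1 windows) and in 17.5% of the 35116 windows of all genes. GGGCGG or its reverse complement occurred in 8 of the 17 windows, MET and MST1R included, and in 42.6% of all windows. TGANTCA occurred in 1 DDR1 window and in 6.57% of all windows. These matches describe the letters of the windows and say nothing of binding.

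Values per library are normalized counts, that is reads divided by the authors' size factor, and the 3 libraries of a group are numbered by size factor, the highest first. MET (chromosome 7, 116312248 to 116438440 in GRCh37; ENSG00000105976) is the receptor for HGF. Its normalized counts were 11493, 13846 and 9972 in control libraries 1 to 3. In flotillin libraries 1 to 3 they were 3060.3, 3242.5 and 4537. Every control library lay above every flotillin library, and flotillin library 3 was the highest of its group. Such a separation, with flotillin lower, held for 21.1% of the 15818 genes fitted by limma and for 4 of the 8 genes here (MET, MST1R, DDR1 and RYK). The means were 11770.3 ± 1952 and 3613 ± 805 (SD, n = 3). In the authors' deposited table of means the log2 fold change was -1.65 (adjusted p = 2.19e-08). The authors' deposited Tuxedo table gave 72.6 FPKM in control and 21.8 in flotillin, with a log2 fold change of -1.73 (q = 0.000804). Limma on the recovered libraries gave -1.71 (SE 0.22, 95% interval -2.23 to -1.20, adjusted p = 0.00316). In these bulk samples, fewer cells with the transcript and less of it per cell cannot be told apart.

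MST1R (chromosome 3, 49924435 to 49967606; ENSG00000164078) encodes RON, the receptor for MSP. It was the member with the largest fold decrease. Control libraries held 2414, 2170.1 and 3291 normalized counts. Flotillin libraries held 434, 469 and 369. The groups did not overlap, and library 3 was the highest of the control group and the lowest of the flotillin group. The means were 2625 ± 589 and 424 ± 50.8 (SD, n = 3). The log2 fold change was -2.54 in the authors' deposited table of means (adjusted p = 3.54e-20). In the authors' deposited Tuxedo table it was -3.02, from 93.2 to 11.5 FPKM (q = 0.00147). Limma gave -2.61 (SE 0.21, 95% interval -3.10 to -2.12, adjusted p = 0.000522). The locus of MST1R in the table also covers MON1A and antisense genes, and whether the counting used strand is not known.

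HGF (chromosome 7, 81328322 to 81399754; ENSG00000019991) had 1 read in flotillin library 1 and 0 in the other 5 libraries. A count of 0 allows up to 3 reads in a library, counting error only. It has no adjusted p in the authors' deposited table of means and was not tested in the Tuxedo one, and no fold is given. MST1, the gene of MSP, had 908, 458 and 145 normalized counts in control libraries and 431, 415 and 134 in flotillin libraries, so the groups overlapped. Its log2 fold change in the authors' deposited table of means was -0.53 (adjusted p = 0.495). MST1 has near-identical copies in the genome, and how the counting split their reads is not known. Neither ligand gene of the MET family passed the threshold.

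Several proteases that activate the ligands, and inhibitors of those proteases, were lower too. In the list of HGF and MSP activators and inhibitors, 6 of 12 tested genes fell in the authors' deposited table of means, 50% against the 23.6% of all tested genes called in either direction. The median log2 fold change of the list was -1.29. The 6 were the proteases PRSS8, ST14, PLAT and PLAU and the inhibitors SPINT1 and SPINT2. Both sides of this protease balance were thus among the genes that fell. ST14, which encodes matriptase, a cell-surface activator of HGF and MSP, went from 7359 ± 2332 to 372 ± 45.2 normalized counts (SD, n = 3), 19.8-fold lower. PRSS8, which encodes prostasin, a protease that acts with matriptase, went from 1619 ± 845 to 52.0 ± 11.4, 31.1-fold lower. SPINT1, the membrane inhibitor of HGF activator and matriptase, was 4.12-fold lower. PLAT, tissue plasminogen activator, was 4.17-fold lower. SPINT2, an inhibitor related to SPINT1 and named after its values were seen, was 3.57-fold lower. The adjusted p in the authors' deposited table of means was 5.25e-39 for ST14, 7.19e-25 for PRSS8, 6.98e-15 for SPINT1, 9.31e-08 for PLAT and 1.34e-07 for SPINT2.

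**Figure D1:**
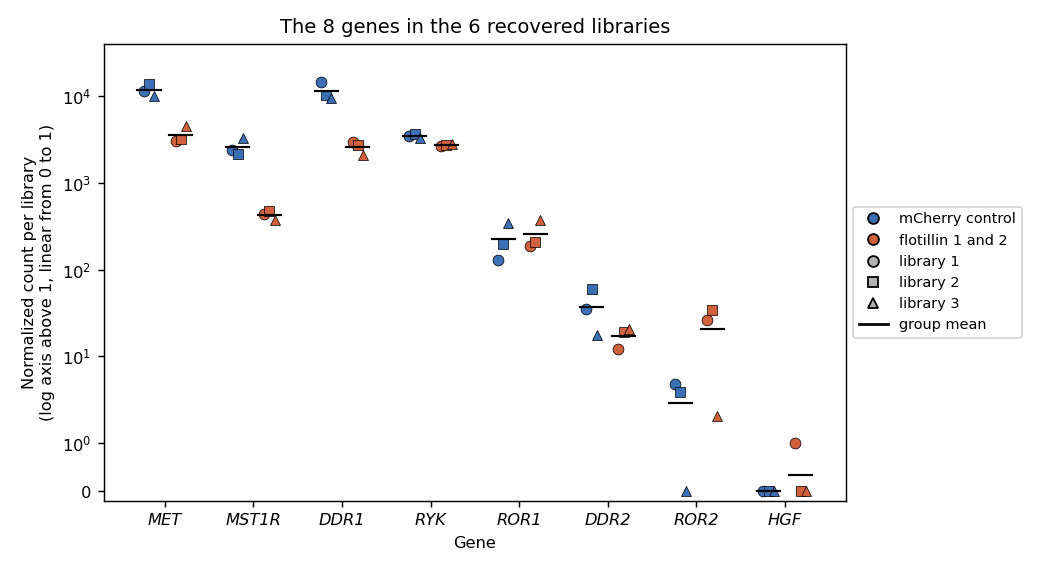
Normalized counts of the 8 genes in each recovered library (vertical axis, logarithmic above 1 and linear below), with control libraries in blue, flotillin libraries in orange, a marker shape for each library number and a black bar for the group mean. The control and flotillin libraries separate for MET, MST1R, DDR1 and RYK and overlap for ROR1, DDR2, ROR2 and HGF.

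Genes that act next to MET, at the cell surface or inside the cell, moved in both directions. Of 30 tested adaptors, co-receptors and phosphatases, 7 fell and 4 rose in the authors' deposited table of means (36.7% called), and the median log2 fold change over the list was 0.12. Limma called 7 of the 26 with recovered reads, which leave out ITGA6, CD44 and SHC1. ITGA6, the integrin subunit that pairs with ITGB4, a partner of MET, went from an authors' mean of 29303 to 3844 ± 1022 (log2 fold change -2.82 and adjusted p = 3.60e-21 in the authors' deposited table). PLXNB1, a semaphorin receptor that associates with MET, went from 15456 ± 7713 to 3170.2 ± 1214, 4.88-fold lower. LRIG1, a membrane protein that promotes loss of MET and ERBB receptors, went from 1736 ± 743 to 443 ± 119, 3.92-fold lower. DAB2IP, a RAS GTPase-activating protein, was 3.48-fold lower. CD44, the co-receptor, PLCG1 and GAB1 also fell, GAB1 being the docking protein that MET recruits; limma gave PLCG1 an adjusted p of 0.0719. The 4 that rose were CBLB, a ubiquitin ligase of receptor tyrosine kinases, and SHC1, CRK and RANBP9. The authors' deposited Tuxedo table gave q = 0.0641 for PLCG1, 0.457 for GAB1, 0.326 for SHC1 and 0.355 for RANBP9. CBLB went from 431 ± 86.2 to 1108 ± 157 normalized counts, with a log2 fold change of 1.32 in the authors' deposited table of means (adjusted p = 1.17e-05).

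DDR1 (chromosome 6, 30844198 to 30867933; ENSG00000204580) is the collagen receptor of epithelium. Control libraries held 14494.5, 10399.8 and 9599 normalized counts. Flotillin libraries held 2947, 2737 and 2104. Library 3 was the lowest of both groups, and the lowest control library was still well above the highest flotillin library. The means were 11498 ± 2626 and 2596 ± 439 (SD, n = 3). The log2 fold change in the authors' deposited table of means was -2.07 (adjusted p = 1.06e-12). The authors' deposited Tuxedo table gave 223 FPKM in control and 45.4 in flotillin, a log2 fold change of -2.30 (q = 0.00695). Limma gave -2.14 (SE 0.23, 95% interval -2.66 to -1.61, adjusted p = 0.00148).

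DDR2 (chromosome 1, 162601163 to 162750237; ENSG00000162733), the collagen receptor typical of mesenchymal cells, was near the lower end of what was measured. It had 35.1, 59.3 and 17.8 normalized counts in control libraries and 12.001, 19.3 and 20.6 in flotillin libraries. The lowest control library fell within the flotillin range, so the groups overlapped. The means were 37.4 ± 20.9 and 17.3 ± 4.61 (SD, n = 3), and the log2 fold change in the authors' deposited table of means was -0.97 (adjusted p = 0.144). Limma gave -0.95 (95% interval -2.09 to 0.19, adjusted p = 0.185). The authors' deposited Tuxedo table gave q = 0.0743. Without control library 3, limma gave -1.39 (adjusted p = 0.0353), and DDR2 passed. That fit called 6330 of 15818 genes, against 3662 with all libraries. With any other single library left out, DDR2 did not pass. Its direction in all these fits was the same as that of DDR1, lower in the flotillin line.

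Among the collagens that DDR1 and DDR2 bind, 4 of 14 tested genes fell and 1 rose in the authors' deposited table of means (35.7% called), with a median log2 fold change of -0.19. The authors' deposited Tuxedo table called 2 of 10. COL8A1, a short-chain collagen, went from 2953 ± 1286 to 13829.6 ± 3998 normalized counts, with a log2 fold change of 2.09 (adjusted p = 1.11e-07) in the authors' deposited table of means and q = 0.0722 in the Tuxedo one. COL4A6, a basement membrane chain, went from 8823 ± 1989 to 3650.4 ± 245, 2.42-fold lower. COL4A5, its partner chain, was 2.07-fold lower in the authors' deposited table of means (adjusted p = 0.0178), but limma gave an adjusted p of 0.0635. COL1A1, the fibrillar chain, went from 268 ± 105 to 87.7 ± 17.6, with a log2 fold change of -1.51 in the authors' deposited table of means (adjusted p = 0.000368). COL2A1, the cartilage collagen, was the other one that fell, from a mean of 31.6; it was not tested in the authors' deposited Tuxedo table.

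Of 23 tested partners of DDR signalling, 6 fell and 4 rose in the authors' deposited table of means (43.5% called), with a median log2 fold change of 0.14. CDH1, the E-cadherin gene, whose product associates with DDR1 at cell contacts, went from 17575 ± 2685 to 78.8 ± 36.7 normalized counts, 223-fold lower (adjusted p = 3.13e-90 in the authors' deposited table). NOTCH1 was 5.04-fold lower. WWC1, which encodes the polarity protein KIBRA, was 2.20-fold lower. ADAM10, the sheddase of DDR1, and the membrane metalloproteases MMP14 and MMP15 fell by smaller amounts, by -0.98, -0.80 and -0.99 on the log2 scale of the authors' deposited table of means. Limma gave an adjusted p of 0.0505 for MMP14 and 0.0532 for MMP15, and ADAM10 had q = 0.0547 in the authors' deposited Tuxedo table. SDCBP, which encodes the adaptor syntenin, went from 5360 ± 835 to 14674 ± 5402, a log2 fold change of 1.38 in the authors' deposited table of means (adjusted p = 0.000301). PARD3, a polarity protein partner of DDR1, also rose, as did PRKCA and SHC1, though the authors' deposited Tuxedo table gave PARD3 q = 0.195.

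RYK (chromosome 3, 133784147 to 133969494; ENSG00000163785) varied least of the 8 genes. Control libraries held 3497, 3654 and 3254 normalized counts. Flotillin libraries held 2637, 2763 and 2784. The groups did not overlap, with means of 3468 ± 202 and 2728 ± 79.4 (SD, n = 3), and the coefficients of variation were 5.82% and 2.91%. The ratio of the means was 1.27-fold lower in flotillin, and the log2 fold change in the authors' deposited table of means was -0.34 (adjusted p = 0.191). Limma gave -0.35 (95% interval -0.70 to 0.01, adjusted p = 0.131), an interval that spans a decrease as well as almost no change.

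ROR1 (chromosome 1, 64239693 to 64647181; ENSG00000185483), a receptor for WNT5A, held 129, 199.9 and 341 normalized counts in control libraries. It held 187, 209 and 372 in flotillin libraries. Library 3 was the highest of both groups, and the groups overlapped. The means were 223 ± 108 and 256 ± 101 (SD, n = 3). The log2 fold change in the authors' deposited table of means was 0.18 (adjusted p = 0.784), and limma gave 0.24 (95% interval -0.72 to 1.20, adjusted p = 0.683). The spread within a group was thus larger than the difference between groups. Library 3 exceeded the mean of the other libraries by 1.05 (log2) in control and 0.91 in flotillin. Of the 11284 genes with a mean of at least 100, 3.84% had both offsets at least as high as the smaller of these.

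ROR2 (chromosome 9, 94325373 to 94712444; ENSG00000169071), the other WNT5A receptor, rested on few reads: 5, 4 and 0 in control libraries and 26, 34 and 2 in flotillin libraries. As normalized counts these were 4.74, 3.83 and 0 in control and 26.0, 34.5 and 2.06 in flotillin. Flotillin libraries 1 and 2 lay above all others, and flotillin library 3 lay within the control range. The means were 2.86 ± 2.52 and 20.8 ± 16.8 (SD, n = 3), a ratio of 7.29. The authors' deposited table of means called it higher, with a log2 fold change of 1.83 (adjusted p = 0.0405). It was not tested in the authors' deposited Tuxedo table, where it was listed at 0.0385 and 0.352 FPKM. Limma did not call it (log2 fold change 2.24, SE 1.08, 95% interval -0.27 to 4.75, adjusted p = 0.162). Without flotillin library 3, limma gave 3.35 (adjusted p = 0.0416), and without library 3 of both groups 2.56 (adjusted p = 0.00315). That last fit called 4 members lower, the fourth being DDR2, and ROR2 higher, against 20.5% and 23.5% of all genes.

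**Figure D2:**
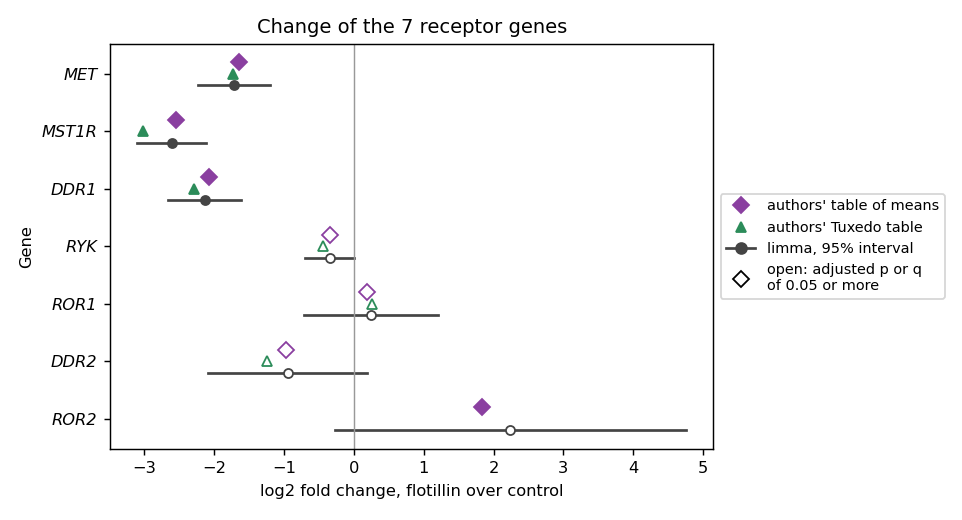
Log2 fold change of flotillin over control (horizontal axis) for the 7 receptor genes in the authors' table of means, the authors' Tuxedo table and the limma fit with its 95% interval; filled symbols have an adjusted p or q under 0.05. MST1R, DDR1 and MET lie left of 0 with filled symbols in all 3 sources, while ROR2 is filled in the authors' table of means alone and its limma interval runs from -0.27 to 4.75.

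Most of the WNT-side genes that passed were lower in the flotillin line. In the list of WNT ligands, antagonists and co-receptors of ROR and RYK, 11 of 19 tested genes fell and 1 rose in the authors' deposited table of means (63.2% called), with a median log2 fold change of -0.91. The 11 were the ligands WNT3A, WNT7A and WNT7B, the Frizzled receptors FZD3, FZD4, FZD5, FZD6 and FZD8, the co-receptor LRP6, the pseudokinase PTK7 and the secreted antagonist SFRP1. The 1 that rose was WNT5A, the ligand of ROR1 and ROR2. WNT5A had 269, 347 and 194 normalized counts in control libraries and 696, 621 and 1455 in flotillin libraries. Every flotillin library lay above every control library, and flotillin library 3 was the highest. The means were 270.4 ± 76.3 and 924 ± 461 (SD, n = 3), a ratio of 3.42. Its log2 fold change was 1.65 (adjusted p = 0.000212) in the authors' deposited table of means, and limma gave 1.70 (adjusted p = 0.0184).

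FZD4 went from 1080.1 ± 695 to 112 ± 26.7 normalized counts, 9.68-fold lower, with control library 3 at 307 and the other control libraries at 1655 and 1279. SFRP1, which binds WNT proteins outside the cell, went from an authors' mean of 23008 to 2941 ± 1689, 7.82-fold lower. FZD3, a Frizzled used in planar polarity, went from 1255 ± 57.6 to 441 ± 68.9, 2.85-fold lower. Their adjusted p-values in the authors' deposited table of means were 4.14e-08, 1.29e-11 and 5.88e-09. FZD3 had q = 0.593 and WNT7A q = 0.505 in the authors' deposited Tuxedo table, which did not test WNT3A and WNT7B.

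In the planar polarity and Dishevelled branch, 5 of 29 tested genes fell and 1 rose in the authors' deposited table of means. That is 20.7% called, near the 23.6% over all tested genes, and the median log2 fold change over the list was -0.01. The genes that fell included core polarity components. VANGL2, a core polarity membrane protein phosphorylated downstream of ROR2, went from 301 ± 76.4 to 3.75 ± 4.87 normalized counts, 80.3-fold lower. CELSR2, an atypical cadherin, was 8.65-fold lower, and CELSR1, its relative, was 2.28-fold lower. MLLT4, which encodes afadin, was 2.17-fold lower. DAAM1, a formin activated by Dishevelled, also fell (limma adjusted p = 0.0701), and RHOA rose. The authors' deposited Tuxedo table gave q = 0.239 for VANGL2 and q = 0.106 for CELSR1.

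**Figure D3:**
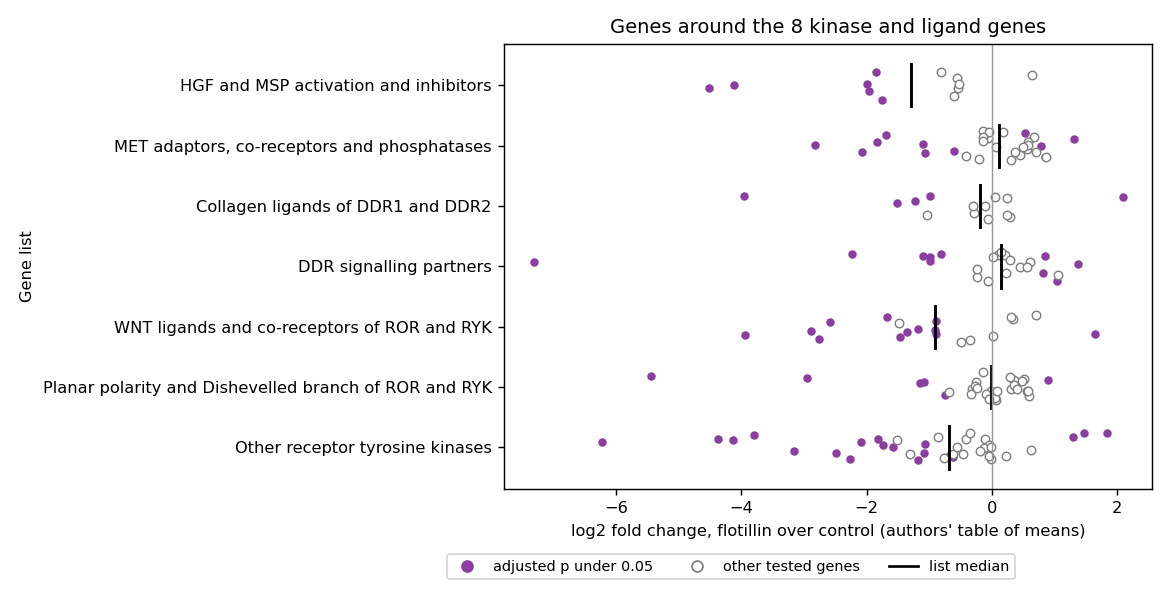
Log2 fold change of flotillin over control in the authors' table of means (horizontal axis) for each tested gene of the 7 lists, filled where the adjusted p was under 0.05; vertical position within a list is arbitrary and the black bar is the list's median. The bars of the HGF and MSP activation list and of the WNT list stand at -1.29 and -0.91, while those of the MET adaptor, DDR partner and planar polarity lists lie near 0.

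Levels of the 8 genes were set against each other per kilobase of exon (GENCODE 29 exon union). In control libraries MET came first at 1672 ± 277 normalized counts per kilobase, followed by DDR1 at 1260.5 ± 288, MST1R at 499.8 ± 112 and RYK at 431 ± 25.1 (SD, n = 3). ROR1 followed at 33.2 ± 16.0, DDR2 at 3.48 ± 1.94 and ROR2 at 0.491 ± 0.432. MET and DDR1 did not differ beyond their spread, nor did MST1R and RYK. In flotillin libraries MET stood at 513 ± 114, RYK at 339 ± 9.87, DDR1 at 285 ± 48.1 and MST1R at 80.7 ± 9.67. ROR1 stood at 38.1 ± 15.1, ROR2 at 3.58 ± 2.89 and DDR2 at 1.61 ± 0.43. On this scale RYK thus moved ahead of DDR1, with DDR1 close behind it. It also moved ahead of MST1R, from which it had not differed beyond the spread in control.

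In FPKM the order was different. Among 58 receptor tyrosine kinase genes in the authors' deposited Tuxedo table, DDR1 ranked 1 in control and 6 in flotillin by FPKM. RYK ranked 4 and then 2, MST1R 5 and then 11, and MET 6 and then 10. The place of MET relative to DDR1, MST1R and RYK therefore depends on the scale, while MET, DDR1 and MST1R were lower in flotillin on both. In FPKM RYK was ahead of MST1R in control already, and it moved ahead of DDR1 on both scales.

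Against the other receptor tyrosine kinases, the 7 receptors held a smaller share of the counts in the flotillin line. Of the normalized counts of 57 receptor genes (EGFR is left out, since its reads could not be recovered in control), they held 37.4%, 39.2% and 42.9% in control libraries. They held 21.0%, 23.1% and 19.9% in flotillin libraries. EGFR had authors' means of 27098 in control and 16584 in flotillin, above each of the 57 genes in both groups. With EGFR counted, the shares would be lower in both groups. The summed counts of the 57 genes were themselves lower, 74960 ± 12151 in control and 45510.2 ± 5237 in flotillin (SD, n = 3). ROS1, another of the 57 genes, went the other way, from 5678 ± 2515 to 14780 ± 3124 normalized counts. Its rise makes the shares of all other genes in flotillin smaller, and shares without ROS1 were not computed. The share of MET went from 15.8 ± 2.25% to 7.89 ± 0.971%, that of DDR1 from 15.3 ± 1.76% to 5.81 ± 1.48% and that of MST1R from 3.65 ± 1.45% to 0.948 ± 0.214%. The share of RYK was 4.69 ± 0.594% in control and 6.04 ± 0.659% in flotillin. These shares describe the libraries and were not tested.

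**Figure D4:**
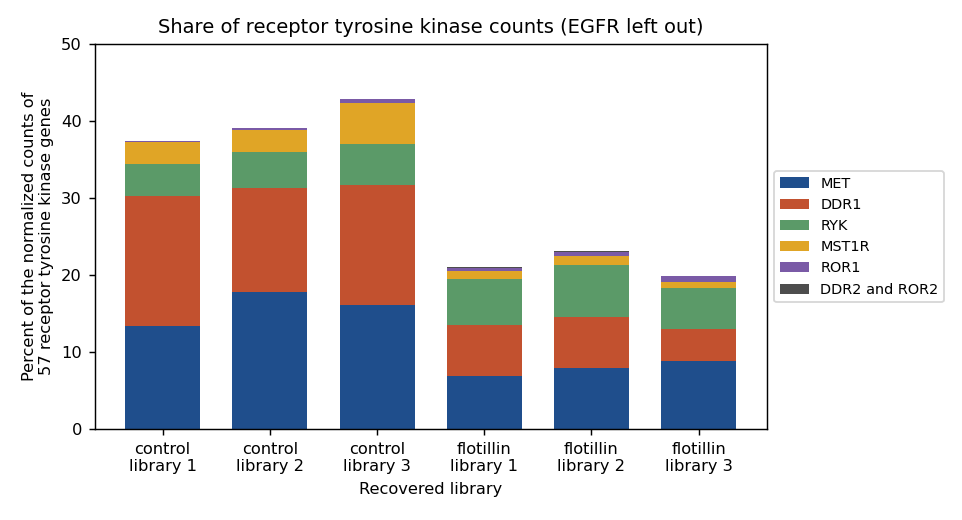
Percent of the normalized counts of 57 receptor tyrosine kinase genes (vertical axis) held by MET, DDR1, RYK, MST1R, ROR1 and the sum of DDR2 and ROR2, stacked for each recovered library. The stacks reach 37.4% to 42.9% in control libraries and 19.9% to 23.1% in flotillin libraries, with the MET, DDR1 and MST1R parts smaller in each flotillin library.

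Of 37 other receptor tyrosine kinase genes tested, 16 fell and 3 rose in the authors' deposited table of means (51.4% called, median log2 fold change -0.68). FGFR3, a fibroblast growth factor receptor, went from 2477 ± 1699.5 to 14.3 ± 8.28 normalized counts, 174-fold lower. EPHA1 was 24.3-fold lower, EPHB3 21.5-fold lower and FGFR2 16.0-fold lower. The authors' deposited Tuxedo table gave q = 0.298 for EPHA1 and q = 0.616 for EPHB3. The genes that rose were ROS1, PDGFRB and EPHA4, none of which passed in the authors' deposited Tuxedo table (q = 0.111, 0.259 and 0.154). Falls as large as those of MET, MST1R and DDR1 were thus also measured in other receptor genes.

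For the 5 receptors with a mean of at least 100, the genes with the most similar pattern over the 6 libraries were found among 11283 others, by the root mean square difference of log2 values centred on each gene's mean. GFOD1 (0.108) was among the closest to MET. MARVELD2 (0.163) and MAPK13 (0.181) were closest to MST1R, and DHRS13 (0.139) and NBEAL2 (0.151) to DDR1. THOC3 (0.0675) and PARP2 (0.0860) were closest to ROR1, and RHBDD1 (0.0373) and TNPO2 (0.0415) to RYK. MARVELD2, which encodes the tight junction protein tricellulin, shared with MST1R the high value of control library 3, at 1620.1 normalized counts against 999.9 and 909.5 in the other control libraries. The 6 points include both groups, so a shared difference between the lines is part of each likeness.

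The recovered libraries held between 17099469 and 18350161 reads in solved genes. Both transgenes showed in the flotillin libraries, FLOT1 rising from 1474 ± 380 to 16771 ± 2432 normalized counts and FLOT2 from an authors' mean of 3727 to 41052. Of 8 mammary epithelial markers, all tested, 5 fell in the authors' deposited table of means (CDH1, EPCAM, TP63, KRT14 and KRT17), while KRT5, KRT8 and KRT18 did not pass. The authors' deposited Tuxedo table had KRT8 higher, at 51.5 FPKM in control and 88.8 in flotillin (q = 0.0338). Limma called CDH1, EPCAM, TP63 and KRT17 lower but not KRT14 (adjusted p = 0.134), whose libraries overlapped. The authors' means of the 8 summed to 93842 in control and 77033 in flotillin, of which KRT5 held 48381 and 67351. Without KRT5, whose reads could not be recovered, their sum ranged from 33890 to 59233 in control libraries and from 8618 to 10652 in flotillin libraries. Of 9 fibroblast markers, 3 rose (DCN, LUM and PDGFRB), 1 fell (COL1A1), COL1A2, COL3A1 and PDGFRA had means under 10 in both groups and THY1 was at 0. The authors' means of the 9 summed to 5510.5 in control and 43484 in flotillin, of which DCN held 4659 and 42467. Without DCN, whose flotillin reads could not be recovered, their sum ranged from 553 to 1184 in control and from 494 to 1939 in flotillin. FAP, a large part of that sum, did not pass (adjusted p = 0.587 in the authors' deposited table of means). It held 410, 336 and 886 normalized counts in control libraries and 365, 272 and 1733 in flotillin libraries. Of 4 tested immune markers, 2 fell, CD14 from 743 to 118 and CSF1R from 344 to 89.0. Sums of immune markers ranged from 998 to 3111 and from 1219 to 1831, with CD3E and MS4A1 at 0, and sums of endothelial markers from 271 to 940 and from 417 to 799, with CDH5, VWF and CLDN5 under 10. The part of these markers in the changes of MET, MST1R and DDR1 was not tested.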

How the data were processed

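RNA of 3 mCherry control and 3 flotillin samples was compared, grouped by their titles. The authors deposited 2 tables of this comparison. The submitters' processing notes name bcl2fastq, DESeq2 1.18.1, HTSeq 0.9.1, HISAT2 2.1.0 and build GRCh37. Not given in the sources used here are the annotation release, the strand setting and the tools of the Tuxedo table. One deposited table holds the signal of each group, a mean of size-factor-normalized counts as its values show, with the authors' log2 fold change, p-value and adjusted p. The other holds the authors' FPKM per group, log2 fold change, test score and q-value, per the file headers. Loci are its GRCh37 loci.

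Means were deposited to 15 digits, so the whole reads behind each were searched for. Each mean up to 18000 had 1 solution (99.5% of the means above 0 in each group); genes above it hold 24.7% of the normalized counts. Altered means, made as a check, had a solution in 10.7% of cases for control means of 8000 to 12000, where MET and DDR1 lie, in 0.5% from 3000 to 8000, and in 47.1% (flotillin 38.4%) from 12000 to 18000, where a solution alone says little. No mean had a second solution. The means of CDH1, PLXNB1, COL4A5 and FLNA in control, and of COL8A1, SDCBP and FLOT1 in flotillin, lie between 12000 and 18000. The SDs, reads and limma values that rest on them are less secure. Means of KRT17 in control and ROS1 in flotillin, which enter the sums given, lie there too. Simulated reads were returned exactly in 100% of 3000 genes per group. Libraries 1 to 3 carry no replicate number. Since the columns are group means, the authors' adjusted p is the main result. As an alternative, limma 3.58.1 (R 4.3.3, trend, robust, Benjamini-Hochberg) ran on log2(normalized count + 1) of 15818 genes with recovered reads and a mean over both groups of at least 10. On data simulated over those 15818 genes it called 54% of 100 genes changed 2-fold and 97% of 100 changed 4-fold, while 6.21% of calls were false. The simulation had a common dispersion (0.0429), independent libraries and far fewer changed genes than limma called here. Its rates need not hold for the real libraries. All p-values rest on the spread among these samples, which may be technical.

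The members, the 7 lists and the tests were chosen with earlier results of these data known. Named from each list were up to 4 called genes of largest change with a mean of at least 100, plus MST1, WNT5A and COL1A1; genes outside this rule are named where counts are broken down. A few items are not reported here. Of 205 list and marker symbols, 204 were matched by gene ID, since some symbols in the files sit on another gene's row. Promoters come from RefSeq (GRCh38.p14); their motifs, and limma voom as a further alternative, were chosen after the data were seen. Tables used Python 3.11.15, numpy 2.4.6, pandas 2.3.3 and numba 0.67.0, and figures matplotlib 3.10.9.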

Additional observations from a re-analysis of the deposited data

How the results depend on the processing

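No paired analysis was possible because the recovered libraries carry no replicate numbers. Library 3, the one of smallest size factor, was above the mean of the other libraries in both groups in 42.9% of 11284 genes and below it in both in 30.2%. MET, MST1R and DDR1 were called lower in both deposited tables, in every limma setting (pseudocounts 0.5 and 5, no filter, a mean of at least 100, upper-quartile scaling, each library left out, library 3 of both groups left out) and with voom. Their log2 fold changes ranged from -2.001 to -1.59, from -3.02 to -2.34 and from -2.30 to -1.96. RYK stayed between -0.44 and -0.31 and passed in none of them. ROR2 lost its call in limma (2.24, adjusted p = 0.162), with pseudocount 0.5 (2.57, 0.17) or 5 (1.44, 0.141), without a filter (2.24, 0.223), with upper-quartile scaling (2.19, 0.181) and with voom (2.58, 0.198); with a library left out it ranged from 1.44 to 3.35. DDR2 ranged from -1.39 (without control library 3, where it passed) to -0.55 with a library left out, and also passed without library 3 of both groups (-1.52, adjusted p = 0.0194). With a library left out ROR1 ranged from -0.10 (without control library 1; -0.06 without flotillin library 3) to 0.60, passing in no case. Between 3 and 5 of the 8 genes were called across settings. Limma called 7 MET adaptors in place of 11, and the q-values of the Tuxedo comparison gave 2 collagens in place of 5. COL8A1, COL4A5 (Tuxedo) and PLCG1 (limma) were tested there and did not pass. ITGA6, CD44 and SHC1 had no limma value, since not all their reads could be recovered, and COL2A1 was not tested in the Tuxedo comparison. Over all genes limma called 3662, between 977 (without flotillin library 1) and 6330 (without control library 3) with 1 library left out, and 6967 without library 3 of both groups (the cause was not tested). Depth limits ROR2, DDR2 and HGF, whose libraries hold at most 62 reads.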

Other observations

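The recovered reads hold isolated zeros in abundant genes. In 36 genes, 1 library of a group had 0 reads while both other libraries of that group had more than 300, a limit set after the values were seen. None of the 8 kinase and ligand genes was among them, and 1 gene of the lists, PIK3R1, was. PIK3R1 is the regulatory subunit of PI3-kinase that MET and DDR1 signal through, and had 0, 5601 and 2894 reads in control libraries and 11523, 12317 and 6654 in flotillin libraries. Its ratio of means was 3.76 in the table of normalized counts, while the authors' deposited Tuxedo table listed it at 65.8 and 148 FPKM, a ratio of 2.24. In the authors' deposited table of means PIK3R1 had a log2 fold change of 0.56 (adjusted p = 0.587). In 8 genes, of which CD99L2 is also one of the 36 and none is among the 8 kinase and ligand genes, 2 libraries of a group were at 0 and the other had more than 300 reads. One of these is in the planar polarity list: FLNA, which encodes filamin A, had 16590, 10098 and 25128 reads in control libraries and 0, 14758 and 0 in flotillin libraries, while the authors' deposited Tuxedo table listed it at 287 and 238 FPKM. On chromosome 14, 6 genes (BAG5, BAZ1A, CFL2, EAPP, SNX6 and SRP54) were at 0 in flotillin library 2 alone of their group. RNF6 was at 0 in control library 3 and in all flotillin libraries, and the authors' deposited Tuxedo table listed it at 20.9 FPKM in control and 29.6 in flotillin. The cause of these zeros was not tested.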
